A study of Schizosaccharomyces pombe with 40 samples.

Results

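The comparison set the fission yeast strain Cdelta53 against the strain Cdelta94 while both were in hydroxyurea. It used the 16 of 40 arrays that the labels give to these strains at 10, 30, 60 and 120 min, 8 for each strain. The 4 times had equal weight and the 0 min arrays were left out, so a swap of time labels within a strain could not move the result. For each gene the values of its probes were averaged, and the difference is the mean log2 ratio of Cdelta53 minus that of Cdelta94. A positive difference therefore means a higher value in Cdelta53.

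The study followed 4 strains of Schizosaccharomyces pombe with altered rep2 through a hydroxyurea time course, sampled at 0, 10, 30, 60 and 120 min with 2 arrays each. Per the labels, rep2 is truncated in Cdelta53, Cdelta94 and Cdelta21, and it has a site mutation in 2C/S-H/Y. All were grown in rich YES medium at 30 °C to mid log phase and given 8 mM hydroxyurea. The strain's RNA carried Cy5 on every array, and Cy3 marked pooled RNA of untreated wild-type cells. No array held hydroxyurea-treated wild-type cells as its sample, so a level below always means the ratio to untreated wild type. The extent of each truncation, the mating type, the selection markers and the number of clones are not stated in the labels. A description field names another mutant, so the strains were taken from the sample titles.

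Rep2 is an activating subunit of MBF, the transcription complex built on Cdc10, Res1 and Res2. MBF switches on genes needed at the start of DNA replication, among them the cyclin Cig2, the licensing factor Cdc18 and the large subunit of ribonucleotide reductase, Cdc22. Hydroxyurea inhibits ribonucleotide reductase and stalls replication forks, and the replication checkpoint is known to keep MBF targets on in such cells.

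The arrays of the strains differed in their spread. The 5 pairs of Cdelta53 arrays with the same time label nearly repeated each other, with a standard deviation of the difference over features of 0.06 to 0.08 log2 units and correlations of 0.98 to 0.99. In the 5 Cdelta94 pairs that standard deviation was 0.16 to 0.32. The near-repeat pairs were also counted as 1 array each, and the adjusted p from that fit is given beside each gene described here whose call was lost in it. The time labels of Cdelta94 at 30 and 120 min are in doubt. Over all features the change from 30 to 120 min correlated at −0.43 to −0.58 between Cdelta94 and the other 3 strains, against 0.52 to 0.65 among those 3. Array medians lay between −0.06 and 0.06, and the labels give no batch, so strain and batch cannot be told apart. Whether the pair of arrays at a time goes back to separate cultures is also not in the labels, and every p-value rests on array-to-array spread alone, part or all of which may be technical. The number of arrays limits the precision.

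The strains differed broadly. Of 5004 features tested, 3496 (69.9%) differed in limma's test at an adjusted p under 0.05, with 1857 (37.1%) higher in Cdelta53 and 1639 (32.8%) lower. Most of these differences were small. Their median over all features was 0.03 and the median size 0.26 on the log2 scale, with a median standard error (SE) of 0.07. A difference of at least 2-fold that passed the test was found for 194 features (3.88%), of which 42 (0.839%) were higher in Cdelta53 and 152 (3.04%) lower. All 194 also passed with the near-repeat arrays counted once, 189 kept 1 sign through the 4 times, and in 176 the 8 values of one strain did not overlap the 8 of the other. Over all features, 1078 (21.5%) showed no overlap. The mean levels of the strains correlated at 0.61 across features, and they spread more in Cdelta94 (standard deviation 0.58) than in Cdelta53 (0.47).

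**Figure D1:**
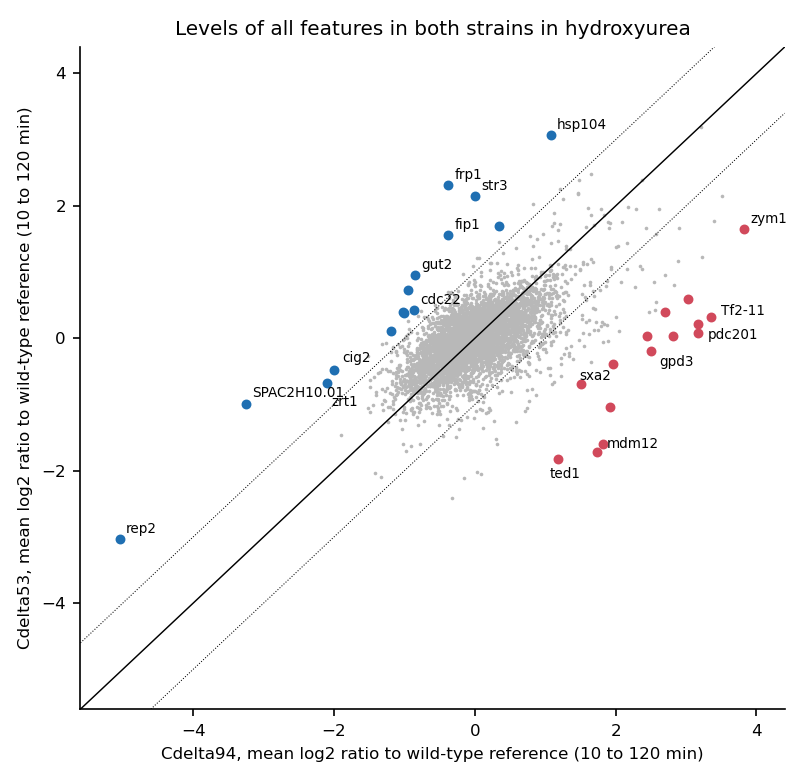
Each point is 1 feature, placed by its mean log2 ratio to the wild-type reference over 10 to 120 min in Cdelta94 (horizontal axis) and Cdelta53 (vertical axis). Dotted lines mark a 2-fold difference, and coloured points are the 15 named genes with the largest difference each way (blue higher, red lower in Cdelta53); rep2 lies lowest on both axes, and the red points lie far to the right, at values up to 3.83 in Cdelta94.

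The signal at rep2 itself was far below wild type in both strains and lower in Cdelta94. As the mean of its probes it ran from −3.20 to −2.67 in Cdelta53, with a median of −3.13, and from −5.46 to −4.68 in Cdelta94, with a median of −5.00. The ranges did not overlap, and the difference was 2.02 (SE 0.07, adjusted p = 1.89e-19). It came almost wholly from 1 of the 2 probes. Probe 1 ran from −1.81 to −1.16 in Cdelta53 and from −5.32 to −4.76 in Cdelta94, a difference of 3.74 (SE 0.07, adjusted p = 1.06e-27). Probe 2 was far below wild type in both strains, at medians of −4.72 and −4.93, with a difference of 0.29 (SE 0.11, adjusted p = 0.0252). Averaged over its probes, the mean rep2 level in hydroxyurea was −0.77 in Cdelta21 and 0.24 in 2C/S-H/Y. The place of the probes in the gene is not given, and a truncation may remove the sequence a probe reads. These are therefore signals at probes, not transcript levels, and ratios this low give no exact fold. The closest tested neighbours of rep2 in the gene order, cay1 and mrpl35, which were looked up for their place, differed by −0.27 (SE 0.06) and 0.37 (SE 0.05). Of the next ones out, klp5 differed by −0.35 (SE 0.06) and the meiosis gene atf21, beyond mrpl35, by −1.47 (SE 0.07, 2.78-fold), with Cdelta94 the strain apart.

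Iron acquisition genes led the genes that were higher in Cdelta53. The ferric reductase gene frp1 ran from 0.56 to 4.30 in Cdelta53, with a median of 2.19, and from −1.58 to 0.16 in Cdelta94, with a median of −0.06. The ranges did not overlap, and the difference was 2.68 (SE 0.06), or 6.43-fold, with an adjusted p of 2.42e-24. The transporter gene str3, named for siderophore iron transport, had medians of 2.34 and 0.14 and a difference of 2.15 (SE 0.07, 4.43-fold, adjusted p = 1.14e-19). The iron permease gene fip1 had medians of 1.64 and −0.29 and differed by 1.94 (SE 0.08, 3.83-fold, adjusted p = 1.03e-17). Its partner, the ferroxidase gene fio1, had medians of 0.82 and −0.87 and differed by 1.68 (SE 0.06, 3.21-fold, adjusted p = 1.04e-18). In all 4 genes every Cdelta53 array lay above every Cdelta94 array. They were picked from these same arrays for a large difference, and 21.5% of all features showed no overlap. Within Cdelta53 the mean level of frp1 was higher at each later time, at 0.58 at 10 min, 1.64 at 30 min, 2.74 at 60 min and 4.28 at 120 min. In the other strains the mean level of frp1 was −0.27 in Cdelta21 and 2.54 in 2C/S-H/Y, so that for this gene Cdelta53 lay near the site mutant and Cdelta94 near Cdelta21.

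Chaperone and glycerol genes were also among the 15 largest. The disaggregase gene hsp104 ran from 2.46 to 4.22 in Cdelta53, with a median of 2.79, and from 0.43 to 1.47 in Cdelta94, with a median of 1.19. It was above wild type on all 16 arrays and differed between the strains by 1.98 (SE 0.08, 3.95-fold, adjusted p = 3.02e-18). The Hsp70 gene ssa1 had medians of 1.65 and 0.30 and differed by 1.35 (SE 0.06, adjusted p = 2.08e-17). The glycerol-3-phosphate dehydrogenase gene gut2 lay on opposite sides of wild type, with medians of 0.85 in Cdelta53 and −0.96 in Cdelta94 and a difference of 1.81 (SE 0.06, 3.50-fold, adjusted p = 5.87e-21). Of the other strains, Cdelta21 had a mean gut2 level of −1.83 and 2C/S-H/Y of −0.70, so Cdelta53 was at least 2-fold above each of the other 3.

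The remaining genes among the 15 largest in this direction were below or near wild type. SPAC2H10.01, for which no role is given here, was strongly reduced everywhere, yet less so in Cdelta53: its median was −0.98 there and −3.33 in Cdelta94, a difference of 2.26 (SE 0.05, 4.80-fold, adjusted p = 2.16e-24). Its mean levels in Cdelta21 and 2C/S-H/Y were −3.42 and −2.94. The zinc transporter gene zrt1 had medians of −0.69 and −2.18 and differed by 1.42 (SE 0.07, adjusted p = 1.89e-16). SPAC27E2.03C and the phospholipase gene plb4 differed by 1.39 (SE 0.06) and 1.30 (SE 0.06). The other 3 of the 15 were the MBF targets cig2, tos4 and cdc22, described with their group below.

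**Figure D2:**
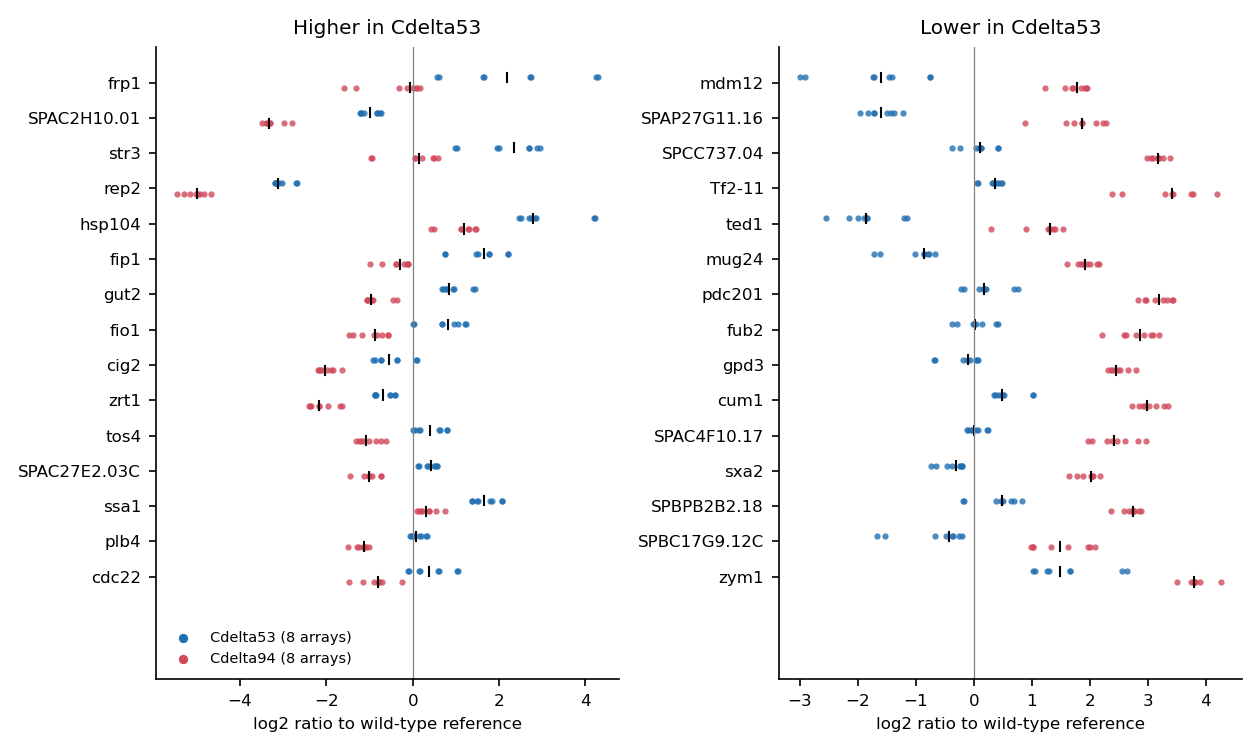
Log2 ratio to the wild-type reference on each of the 8 arrays of Cdelta53 (blue) and of Cdelta94 (red), with the median as a black bar, for the 15 named genes most above (left) and most below (right) Cdelta94 in Cdelta53. The 2 colours do not overlap in any of the 30 genes, which were chosen from these same arrays for a large difference. Over all features 21.5% showed no overlap. mdm12, SPAP27G11.16, ted1, mug24, sxa2 and SPBC17G9.12C are the rows on the right in which every Cdelta53 array lies below 0.

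The largest differences of all were genes lower in Cdelta53. A group of 3 was below wild type in Cdelta53 and above it in each other strain. mdm12, which encodes a subunit of the complex that ties mitochondria to the endoplasmic reticulum, ran from −3.00 to −0.75 in Cdelta53, with a median of −1.60, and from 1.22 to 1.95 in Cdelta94, with a median of 1.78. The difference was −3.45 (SE 0.08), or 10.9-fold, with an adjusted p of 2.42e-24. SPAP27G11.16 had medians of −1.61 and 1.87 and differed by −3.41 (SE 0.10, 10.7-fold, adjusted p = 3.14e-21). ted1 had medians of −1.86 and 1.31 and differed by −3.00 (SE 0.12, 8.01-fold, adjusted p = 8.22e-18). In Cdelta21 and 2C/S-H/Y the mean levels of mdm12 were 1.70 and 2.20, those of SPAP27G11.16 were 1.67 and 1.65, and those of ted1 were 1.47 and 2.35. The P-factor protease gene sxa2 had the same arrangement, with medians of −0.30 in Cdelta53 and 2.03 in Cdelta94. SPBC17G9.12C had medians of −0.42 and 1.49, but its probes disagreed: probe 2 had medians of −1.01 and 2.37, while probe 1 was above wild type in both strains, at 0.16 and 0.85, with overlapping ranges.

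A second group was near wild type in Cdelta53 and well above it in Cdelta94. SPCC737.04 ran from −0.37 to 0.42 in Cdelta53 and from 2.99 to 3.39 in Cdelta94, a difference of −3.09 (SE 0.05, 8.54-fold, adjusted p = 1.63e-26). Its mean levels in Cdelta21 and 2C/S-H/Y, −0.14 and −0.21, were also near wild type. The retrotransposon feature Tf2-11 ran from 0.06 to 0.48 in Cdelta53 and from 2.38 to 4.19 in Cdelta94, a difference of −3.03 (SE 0.09, 8.16-fold, adjusted p = 2.03e-21). Tf2 elements have near-identical copies, so the signal cannot be assigned to 1 of them. Tf2-11 was at 0.16 in Cdelta21 and at −0.71 in 2C/S-H/Y.

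Further genes of this kind were pdc201, a pyruvate decarboxylase gene, fub2, cum1 and SPAC4F10.17. The medians of pdc201 were 0.18 and 3.20, a difference of −2.95 (SE 0.07, 7.72-fold, adjusted p = 2.23e-23). fub2 and cum1 differed by −2.77 (SE 0.09) and −2.44 (SE 0.07), and SPAC4F10.17 and SPBPB2B2.18 by −2.41 (SE 0.08) and −2.31 (SE 0.08). The metallothionein gene zym1 was above wild type in both strains, with medians of 1.48 and 3.80 and a difference of −2.18 (SE 0.11, 4.54-fold, adjusted p = 1.33e-15). mug24 and the glyceraldehyde-3-phosphate dehydrogenase gene gpd3 stood apart on both sides: Cdelta53 was at least 2-fold below, and Cdelta94 at least 2-fold above, each of the other strains. The medians of mug24 were −0.86 and 1.92, and those of gpd3 were −0.09 and 2.46. For fub2 and SPBC17G9.12C 1 of the 2 probes did not pass the filter on missing values when probes were tested alone, and the values given average both. The same holds for psi1, mfm3, pfl9, mrc1, mcl1, rec7, rad26, mfs3 and pop7, which are described below.

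The other strains give the place of each value. Of the 194 features with at least a 2-fold difference, Cdelta53 was at least 2-fold from each of the other 3 strains in 53 (1.06% of all features), 5 of them higher and 48 lower. Cdelta94 was at least 2-fold from each of the other 3 in 58 (1.16%), 49 of them higher in Cdelta94 and 9 lower. Both strains stood apart in 2 features, mug24 and gpd3, and neither did in 85. These counts used the same arrays as the comparison and carry no test. The features rarely lay side by side on the chromosomes. In the gene order there were 7 runs of neighbours with a 2-fold difference in the same direction, each of 2 genes, among them fip1 with fio1, the histone genes hhf1 with hht1, and Tf2-11 with SPBC1289.14.

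MBF targets were on balance higher in Cdelta53. Of 21 listed genes 19 were tested; 12 were higher against 37.1% of all features, 4 were lower against 32.8%, and 3 did not pass. The median difference was 0.23 against 0.03 over all features, and 0.15 under quantile normalization. The values of 6 did not overlap between strains, against 21.5% of all features. With near-repeat arrays counted once, 10 were higher and 3 lower. The median level of the 19 genes was 0.16 in Cdelta53, −0.20 in Cdelta94, 0.34 in Cdelta21 and 0.68 in 2C/S-H/Y.

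Of these genes 5 differed by at least 2-fold. The cyclin gene cig2 ran from −0.92 to 0.09 in Cdelta53, with a median of −0.55, and from −2.20 to −1.64 in Cdelta94, with a median of −2.04. Its ranges did not overlap, and it differed by 1.52 (SE 0.07, 2.87-fold, adjusted p = 1.63e-16). tos4, which encodes a protein with a phosphopeptide-binding FHA domain, ran from 0.01 to 0.80 and from −1.31 to −0.62, a difference of 1.42 (SE 0.08, 2.67-fold, adjusted p = 2.40e-14). It was above wild type on every Cdelta53 array and below it on every Cdelta94 array. cdc22 ran from −0.10 to 1.05 and from −1.47 to −0.25, a difference of 1.28 (SE 0.08, 2.43-fold, adjusted p = 8.43e-14). The dUTPase gene dut1 had medians of −0.25 and −1.56 and differed by 1.26 (SE 0.07, adjusted p = 3.50e-15). cdc18 ran from −0.33 to 1.14 in Cdelta53 and from −1.51 to 0.24 in Cdelta94, so its ranges overlapped while the difference was 1.18 (SE 0.10, adjusted p = 3.91e-11). In Cdelta53 cdc18 averaged −0.27 at 10 min and 1.13 at 120 min. In Cdelta94 it averaged −1.39 at 10 min and −0.74 at 60 min, the hydroxyurea times whose labels are not in doubt.

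**Figure D3:**
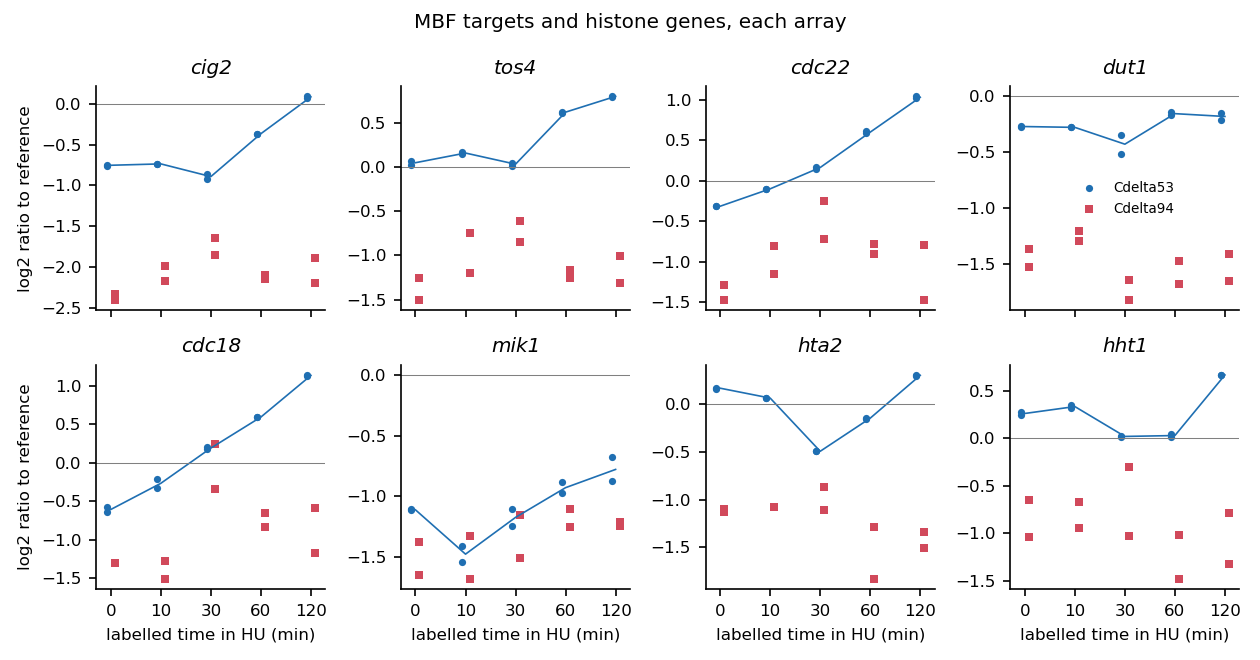
Log2 ratio to the wild-type reference on each array of Cdelta53 (blue circles, with a line through the means) and Cdelta94 (red squares) by labelled time in hydroxyurea (HU), for 6 MBF targets and the histone genes hta2 and hht1. The Cdelta94 points have no line because their 30 and 120 min labels are in doubt; cig2, tos4, cdc22, dut1, hta2 and hht1 show no overlap between strains over 10 to 120 min, while cdc18 and mik1 do overlap.

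The other targets differed less. cdt2, which encodes an adaptor that directs replication proteins to degradation, was higher in Cdelta53 by 0.42 (SE 0.06), and the MBF corepressor gene nrm1 by 0.43 (SE 0.05) with no overlap of the arrays. ssb1, the large subunit of replication protein A, was higher by 0.39 (SE 0.08) and the fork gene mcl1 by 0.23 (SE 0.06). The checkpoint mediator gene mrc1 was higher by 0.24 (SE 0.06), but its difference was −0.09 over the 10 and 60 min arrays alone. The small reductase subunit gene suc22 and the Cdc2 inhibitory kinase gene mik1 passed at 0.14 (SE 0.06, adjusted p = 0.0310) and 0.22 (SE 0.08, adjusted p = 0.0116), and missed with near-repeats counted once (adjusted p = 0.144 and 0.0618). The mismatch repair gene msh6 went the other way, with medians of −0.67 in Cdelta53 and −0.01 in Cdelta94, no overlap, and a difference of −0.73 (SE 0.06, adjusted p = 2.59e-11). The cohesin gene psm3 was lower by 0.40 on the log2 scale (difference −0.40, SE 0.07). ams2, the activator of histone genes, differed by −0.19 (SE 0.06) and ctp1, a gene of DNA end resection, by −0.17 (SE 0.06). The call of ams2 was lost with near-repeats counted once (adjusted p = 0.0651), and ctp1 turned to 0.10 under quantile normalization. In suc22, mik1, psm3, ams2 and ctp1, 1 of the 2 probes did not pass when tested alone. For mrc1, limma's test of each probe alone gave −0.0094 (adjusted p = 0.926) at probe 1. Probe 2 of mrc1 did not pass the filter on missing values. The licensing gene cdt1, the polymerase gene pol1 and the cohesin gene rad21 did not pass, at 0.03 (SE 0.07), 0.05 (SE 0.10) and −0.05 (SE 0.07).

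Among the subunits and regulators of MBF only rep2 differed by at least 2-fold, as a signal that came almost wholly from 1 of its 2 probes. Of 9 tested genes, rep2 and the target nrm1 among them, 4 were higher, against 37.1% of all features. Of the rest 3 were lower, against 32.8%, and 2 did not pass. The median of the 9 was 0.07. The scaffold subunit gene cdc10 was higher in Cdelta53 by 0.25 (SE 0.06). The DNA-binding subunit genes res1 and res2 differed by −0.21 (SE 0.07) and −0.28 (SE 0.06), and the call of res1 was lost with near-repeats counted once (adjusted p = 0.0755). rep1, the related activator that serves in meiosis, did not pass at 0.07 (SE 0.09). Of the checkpoint kinase genes, rad3 was higher by 0.25 (SE 0.07), while rad26, its partner, did not pass at 0.07 (SE 0.07). cds1 differed by −0.15 (SE 0.06), a call that was lost with near-repeats counted once (adjusted p = 0.123). In cdc10, res1, res2, rad3 and cds1, 1 of the 2 probes did not pass when tested alone. The strain differences at probes 1 and 2 were 0.0074 and 0.48 for cdc10, −0.43 and 0.0042 for res1, and −0.052 and −0.51 for res2. They were 0.17 and 0.33 for rad3 and −0.31 and 0.012 for cds1.

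Core histone genes were higher in Cdelta53 without exception among the 9 tested, where 37.1% of all features were. Their median difference was 1.01 and 7 of the 9 showed no overlap, against 21.5% of all features. The largest was the H3 gene hht1, which ran from 0.01 to 0.67 in Cdelta53 and from −1.48 to −0.30 in Cdelta94, a difference of 1.21 (SE 0.09, adjusted p = 6.72e-12). The H2A gene hta2 had medians of −0.04 and −1.20 and differed by 1.19 (SE 0.07, adjusted p = 3.64e-14). The differences of the 9 genes ran from 0.49 to 1.21. The median level of the 9 genes was −0.12 in Cdelta53, −0.95 in Cdelta94, −0.12 in Cdelta21 and 0.34 in 2C/S-H/Y, so Cdelta94 was the low strain. The H3 and H4 genes are near-identical in their coding sequence, and how far their probes read each other is not known.

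Other cell cycle groups were mixed. Over all features 37.1% were higher in Cdelta53 and 32.8% lower. Among genes of replication initiation and the fork, 13 of 36 were higher and 13 lower, with a median of 0.05. The GINS subunit genes psf2 and psf3 went opposite ways at 0.51 (SE 0.05) and −0.52 (SE 0.05), and spp2, a primase subunit gene, was lower at −0.89 (SE 0.07). Checkpoint and repair genes had a median of −0.15, with 4 of 26 higher and 13 lower, which became −0.091, 7 and 8 under quantile normalization. The recombination gene rad52 had medians of −0.15 and 0.79 and differed by −1.10 (SE 0.09, adjusted p = 1.83e-11), and the checkpoint kinase gene chk1 by −0.92 (SE 0.11). In neither did the strains' arrays overlap.

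Cyclins and Cdc2 control genes had 6 of 14 higher, close to the share of all features, and 2 lower, with a median of 0.11. Under quantile normalization 4 were higher and 5 lower with a median of 0.025, and with near-repeats counted once 3 were higher and 2 lower. The mitotic inducer gene cdc25 was lower in Cdelta53 at −0.45 (SE 0.05), with no overlap, while the mitotic cyclin gene cdc13 was higher at 0.38 (SE 0.07). Mitosis and septation genes had 10 of 28 higher and 12 lower, with a median of −0.05 that became 0.03 under quantile normalization. The forkhead factor gene fkh2 was lowest at −0.77 (SE 0.06). Centromere and kinetochore genes were mostly lower in Cdelta53, with 9 of 15 lower against 32.8% of all features. Of the 15, 2 were higher, against 37.1%, and the median was −0.33. The centromere loading factor gene mis18 had medians of −0.58 and 0.62 and differed by −1.14 (SE 0.10, adjusted p = 9.39e-11), whereas mis16, which acts in the same pathway, was higher by 0.50 (SE 0.06).

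Heat shock chaperones were higher in Cdelta53 in 13 of 18 genes and lower in 2, with a median of 0.56 and 10 genes without overlap, where 37.1% of all features were higher and 21.5% showed no overlap. Besides hsp104 and ssa1, the Hsp40 gene psi1 had medians of 1.91 and 0.77 and differed by 1.20 (SE 0.07, adjusted p = 2.59e-14). The lower genes were hsf1, the heat shock transcription factor, and cdc37, a cochaperone, at −0.33 (SE 0.08) each. cdc37 missed under quantile normalization (adjusted p = 0.198). For hsf1, limma's test of each probe alone gave −0.022 (adjusted p = 0.84) at probe 1 and −0.63 (adjusted p = 1.25e-06) at probe 2. Core stress genes had 15 of 24 higher, against 37.1% of all features, and 5 lower, with a median of 0.21. That median was 0.44 under quantile normalization, and by labelled time it was −0.21 at 30 min and 0.84 at 120 min. Past 2-fold they moved both ways, with 3 higher and 2 lower, not all of which are given here. Among the 3 was gpd1, which makes glycerol-3-phosphate, higher by 1.15 (SE 0.05, adjusted p = 4.70e-17). The glutathione transferase gene gst2 had medians of 2.08 and 3.39 and a difference of −1.36 (SE 0.06, adjusted p = 5.64e-17), and hsp9 differed by −0.73 (SE 0.08). Antioxidant genes were even, with 7 of 19 higher, 7 lower and a median of −0.0023 that became 0.08 under quantile normalization. In them the thioredoxin reductase gene trr1 was higher by 0.58 (SE 0.06) and the oxidative stress factor gene pap1 by 0.47 (SE 0.05). On the lower side obr1 differed by −0.46 (SE 0.06) and pmd1 by −0.40 (SE 0.11), and 1 member was lower by at least 2-fold. The sign of obr1 changed under quantile normalization, and 1 of the 2 probes of pmd1 did not pass when tested alone.

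In the iron uptake list 9 of 14 genes were higher, against 37.1% of all features, and 3 were lower, against 32.8%. The median was 0.59, and 5 showed no overlap, against 21.5% of all features. Against the uptake genes described above stood pcl1, a vacuolar iron transporter gene, at −0.82 (SE 0.09), and fep1, the iron-responsive repressor of uptake genes, at −0.45 (SE 0.06). frp2 differed by −0.24 (SE 0.09), a call lost with near-repeats counted once (adjusted p = 0.0906). Copper and zinc genes were split, with 3 of 9 higher, 4 lower and a median of −0.0028. The copper transporter genes ctr4 and ctr5 were lower at −0.84 (SE 0.05) and −0.69 (SE 0.08), while ccc2, a copper-transporting ATPase gene, was higher at 0.70 (SE 0.05). All 3 had no overlap. Of 6 phosphate genes tested, 3 were lower, 1 was higher and the median was −0.14 (−0.28 over 10 and 60 min alone), with the regulator gene pho7 at −0.59 (SE 0.05).

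Mating and pheromone genes were lower in Cdelta53. Of 26 tested, 20 were lower against 32.8% of all features, 1 was higher, and the median was −0.45. The M-factor precursor genes led after sxa2. mfm3 ran from −0.66 to 0.04 in Cdelta53 and from 1.19 to 1.58 in Cdelta94, a difference of −1.70 (SE 0.07, adjusted p = 3.36e-17), and mfm1 differed by −1.60 (SE 0.13, adjusted p = 1.03e-11). The arrays of neither overlapped. The one higher gene, ste20, passed at 0.17 (SE 0.05) and missed with near-repeats counted once (adjusted p = 0.0614). The median level of the list was −0.22 in Cdelta53, 0.41 in Cdelta94, 0.06 in Cdelta21 and −0.02 in 2C/S-H/Y, so the 2 strains compared lay on either side of the others. The labels give no mating type, and its part in these values was not tested.

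Of 28 meiosis genes 20 were lower, against 32.8% of all features, and 4 were higher, of which 1 was left with near-repeats counted once. The median was −0.39, and −0.62 over 10 and 60 min alone. The bZIP transcription factor gene atf21 had medians of 0.41 and 1.64 and differed by −1.47 (SE 0.07, adjusted p = 3.12e-16). The meiotic recombination genes mcp7 and rec10 differed by −1.13 (SE 0.07) and −1.12 (SE 0.12). rec7 was higher by 0.44 (SE 0.17), but with near-repeats counted once the adjusted p was 0.0903. Flocculins and subtelomeric genes had 3 of 13 higher and 5 lower, against 37.1% and 32.8% of all features. Their median was −0.095, and it was −0.17 under quantile normalization and −0.25 over 10 and 60 min alone. The cell surface gene pfl9 had medians of −0.08 and 1.85 and differed by −1.94 (SE 0.09, adjusted p = 4.70e-17). The retrotransposon list had 1 member on the array, Tf2-11.

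Among genes of nutrient use some lists were shifted by a small amount, and others differed mainly at single genes. Genes that serve as auxotrophic markers were higher in 18 of 25, against 37.1% of all features, and lower in 1, against 32.8%. Their median was 0.31, and none was past 2-fold. The lower gene, leu2, was lost with near-repeats counted once (adjusted p = 0.0799). The histidine gene his1 was highest at 0.92 (SE 0.06), then the adenine gene ade1 at 0.79 (SE 0.06). Nitrogen and amino acid transport genes had 6 of 19 higher, 8 lower and a median of 0.098, which was 0.015 under quantile normalization. The glutamate dehydrogenase gene gdh2 had medians of 1.02 and 2.85 and differed by −1.72 (SE 0.05, adjusted p = 9.41e-21), although its ranges overlapped. Hexose transport and glucose-repressed genes had 6 of 16 higher, 7 lower and a median of −0.025, which was −0.092 under quantile normalization. In that list fbp1, the fructose-bisphosphatase gene, was near wild type in Cdelta53 and raised in Cdelta94, with medians of −0.07 and 1.84 and a difference of −1.87 (SE 0.10, adjusted p = 7.10e-16). The invertase gene inv1 differed by −1.34 (SE 0.12), and the hexose transporter gene ght2 by 0.90 (SE 0.07). Glycolysis genes had 10 of 17 higher, against 37.1% of all features, 3 lower and a median of 0.28. In that list pdc201 and gpd3 were far below the rest, and adh1, the alcohol dehydrogenase gene, was highest at 0.87 (SE 0.07).

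Uracil-regulated genes were higher in all 4 members tested, where 37.1% of all features were higher, with a median of 0.69. urg1 ran from 1.49 to 2.96 in Cdelta53 and from 0.40 to 2.18 in Cdelta94, so the ranges overlapped while the means differed by 0.91 (SE 0.11, adjusted p = 3.00e-08). Sterol and low-oxygen genes had 14 of 20 higher and 1 lower, against 37.1% and 32.8% of all features, with a median of 0.23. The sterol synthesis genes erg25 and erg24 were higher by 0.76 (SE 0.08) and 0.72 (SE 0.06).

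Growth genes showed small shifts. Ribosomal protein genes were higher in 79 of 121, against 37.1% of all features, and lower in 13, with a median of 0.29. In 27 the arrays did not overlap, close to the share of 21.5% over all features. rpl1601 and rpl401 were highest at 1.01 (SE 0.11) and 1.01 (SE 0.08). Many of these genes have near-identical copies, which probes may not separate. Ribosome biogenesis genes had 41 of 105 higher, close to the share of 37.1% over all features, and 24 lower, against 32.8%. Their median of 0.06 became −0.0023 under quantile normalization. In that list nop16 differed by −1.03 (SE 0.05) and rio2 by −1.01 (SE 0.07). Proteasome genes had 13 of 31 higher, 8 lower and a median of 0.08. Respiratory chain genes had 17 of 49 higher, 13 lower and a median of 0.065, which was 0.13 over 10 and 60 min alone. Their extremes were the ATP synthase genes atp14 at −1.19 (SE 0.07) and atp7 at 0.91 (SE 0.06).

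**Figure D4:**
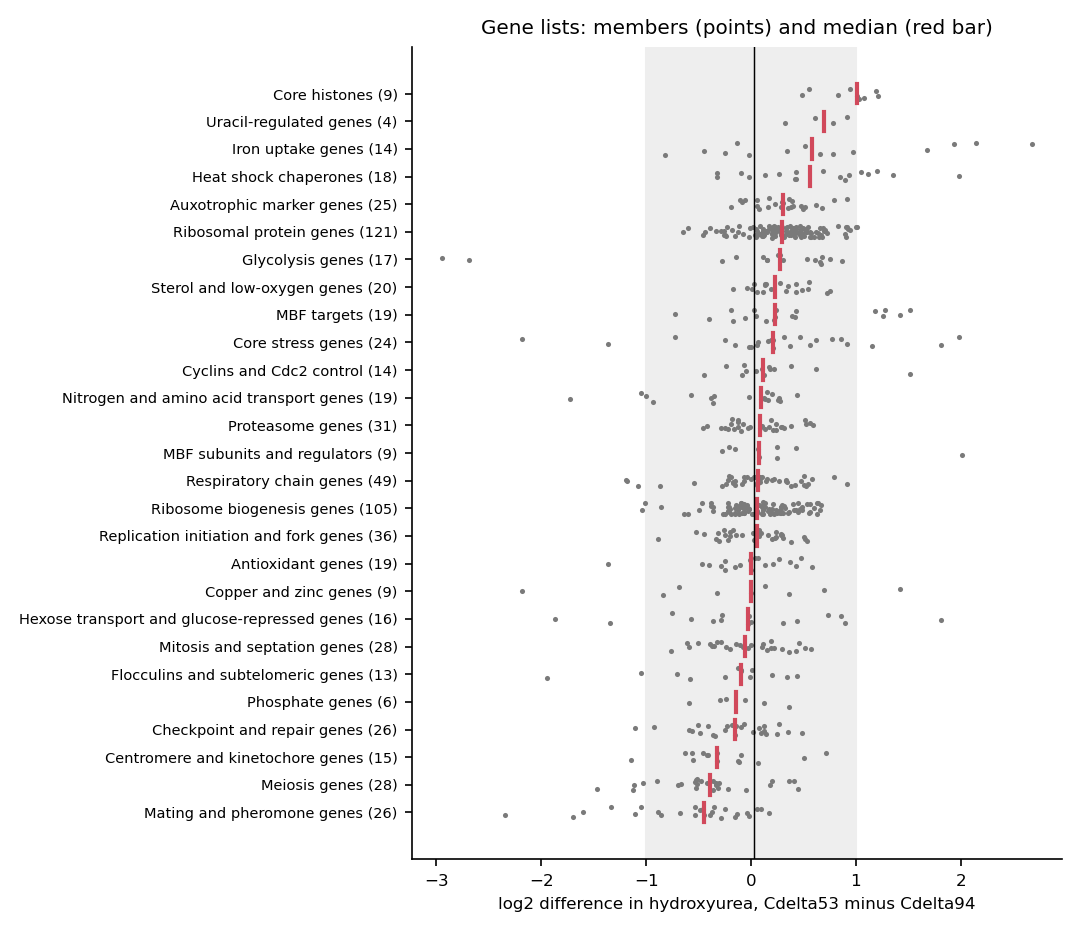
Log2 difference in hydroxyurea, Cdelta53 minus Cdelta94, for each tested member (points) of 27 gene lists with more than 1 member, with the number tested in brackets. Red bars are list medians, the black line is the median of all features at 0.03 and the grey band spans a 2-fold difference either way; core histones have the highest median at 1.01, and mating and pheromone genes the lowest at −0.45.

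Most of the large differences were present before hydroxyurea. At 0 min, on 4 arrays the comparison above does not use, 2239 features (44.7%) differed, 1225 higher in Cdelta53 and 1014 lower. Of the 194 features with a 2-fold difference in hydroxyurea, 193 had also passed at 0 min in the same direction, and so had all 30 of the genes with the largest differences. Those counts come from the fit that holds both near-repeat Cdelta53 arrays at 0 min. With near-repeat arrays counted once, 1224 features passed at 0 min. The differences at 0 min and in hydroxyurea correlated at 0.90 across features. That correlation is a description, because within each difference all features are read from the same few arrays. mdm12 differed by −3.29 at 0 min and −3.45 in hydroxyurea, SPCC737.04 by −3.17 and −3.09, and rep2 by 2.54 and 2.02. Among MBF targets the 0 min differences were 1.62 for cig2, 1.43 for tos4, 1.07 for cdc22 and 0.69 for cdc18. The core histone median was 1.09 at 0 min, and that of mating and pheromone genes was −0.64. Over all features the median size of the difference was 0.29 at 0 min, close to the 0.26 in hydroxyurea.

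**Figure D5:**
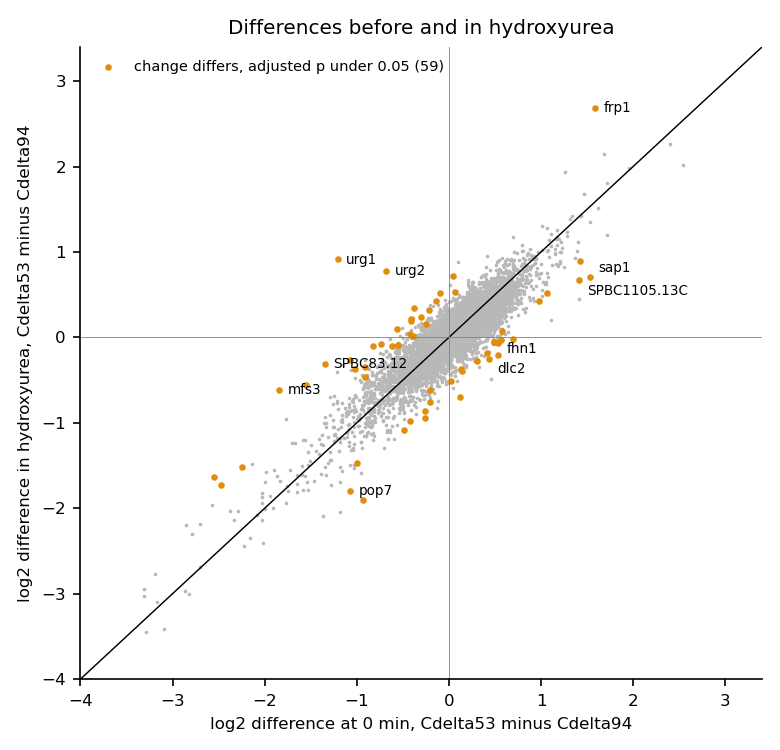
Log2 difference, Cdelta53 minus Cdelta94, at 0 min (horizontal axis) and in hydroxyurea (vertical axis), 1 point per feature, with a line where both are equal. Orange points are the 59 features whose change from 0 min differed between the strains; urg1 and urg2 lie at the upper left, at −1.21 and −0.68 before and 0.91 and 0.78 in hydroxyurea.

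The change from 0 min to the mean of the hydroxyurea times differed between strains for 59 features (1.18%), 31 with a higher and 28 with a lower change in Cdelta53, and 5 differed by at least 2-fold. Counting near-repeats once left 3 of them, frp1, mfs3 and urg1, with 227 features at an unadjusted p under 0.05 where there had been 680. Leaving out 1 array at a time moved the count between 7, without the first Cdelta53 array at 0 min, and 121, without the first Cdelta94 array at 120 min. The uracil-regulated gene urg1 gained 2.87 in Cdelta53 and 0.75 in Cdelta94, a difference in change of 2.12 (SE 0.24). Its levels at 0 min were −0.48 and 0.72, so the strains changed places. urg2 gained 2.26 and 0.80, but its call was lost with near-repeats counted once (adjusted p = 0.0647). Its probe 1 did not pass the filter on missing values and had no value in Cdelta94 in hydroxyurea. frp1 gained 2.10 in Cdelta53 and 1.00 in Cdelta94, a difference of 1.09 (SE 0.13). mfs3, a transporter gene, went from −2.28 to a mean of −2.04 in Cdelta53 and from −0.44 to −1.42 in Cdelta94, a difference in change of 1.22 (SE 0.16). The mean for Cdelta94 hid a wide spread, from −2.54 to −0.13 over its 8 arrays.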

How the data were processed

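The deposited values are log2 ratios, 1 per probe and array, which the authors made from two-colour arrays; per the labels, Cy5 marked the strain and Cy3 the wild-type reference. Base 2 was inferred: raised as powers of 2, 100% of the values below 0 fell on multiples of 0.001 (tolerance 0.02 of a step), against 3.48% as powers of 10. The direction was taken as Cy5 over Cy3, which the labels do not state, and no dyes were swapped. The scanner settings, background correction and normalization are not given in these sources.

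Of 9858 probes, 9632 had 1 gene symbol, 44 several and 182 none; only the first were named, and the 2 probes of a gene were averaged. The platform annotation gave the names, and the RefSeq table of assembly ASM294v3, which held 99.5% of the genes, gave only current names and neighbours. Features needed a value on 80% of the arrays and on 1 array of every group, which left 5004. limma 3.58.1 in R 4.3.3 (lmFit, eBayes) fitted the means of all 20 groups of 40 arrays, and contrasts were tested with Benjamini-Hochberg adjustment over all features at 0.05. "Higher" and "lower" refer to calls in that test. The script was tested on simulated data.

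The members and the 28 gene lists were chosen with earlier results of these data known, so list counts are descriptions; 10 genes caught by a list's pattern but known for another function were taken out. Named genes were rep2, the 15 with the largest called difference each way and the same sign at all 4 times, every MBF target and regulator, up to 3 called members each way of each other list, and the 5 largest called changes each way. Same-numbered arrays did not deviate together: the correlation between the strains was −0.11 to 0.07 at the 5 times, so no pairing was used. Alternatives were other scalings, filters, blocks, probes and times, leaving out single arrays, and arrays within a standard deviation of 0.1 of each other counted once. Of the MBF target list, yox1 and rhp51 were not matched.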

Additional observations from a re-analysis of the deposited data

Results flagged for a closer look

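In the 15 genes with the largest difference each way, the means of Cdelta53 at the 4 hydroxyurea times and the 8 arrays of Cdelta94 were searched for a value far from the rest, which made 60 groups. Dixon's test at the 95% level marked 2, and chance marks about 1 in 20 groups. The signal at the rep2 probes in Cdelta53 at 120 min was −2.69, above the other 3 times. The level of cum1 in Cdelta53 at 120 min was 1.02, above the other 3 times.

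The change from 0 min to hydroxyurea differed between the strains for 59 features by limma's test of that difference. The 5 named genes with the largest difference each way, 10 in all, are given here. The change was higher in Cdelta53 for urg1, by 2.12, for urg2, by 1.46, for mfs3, by 1.22, for frp1, by 1.09, and for SPBC83.12, by 1.03. The difference in change was −0.81 for sap1, a gene of replication fork stability and chromosome segregation. It was −0.74 for SPBC1105.13C, −0.74 for fhn1, −0.72 for pop7, an RNase P subunit gene, and −0.69 for the dynein light chain gene dlc2. The level of sap1 in Cdelta53 was 0.51 at 0 min, 0.47 at 10 min and −1.97 at 120 min. In Cdelta94 it was −1.01 at 0 min and −0.77 at 10 min. The probes of sap1 disagreed: the lowest Cdelta53 value in hydroxyurea was −0.76 at probe 1 and −3.22 at probe 2. The strain differences in hydroxyurea at probes 1 and 2 were 1.35 and 0.079 for sap1, −0.70 and 0.29 for fhn1, and −0.49 and 0.043 for SPBC83.12. For pop7 the medians of Cdelta53 and Cdelta94 were −0.08 and 0.46 at probe 1 and −1.60 and 0.96 at probe 2. With near-repeat arrays counted once, urg1, mfs3 and frp1 still passed. The adjusted p was then 0.0647 for urg2, 0.663 for SPBC83.12, 0.476 for sap1, 0.758 for SPBC1105.13C, 0.663 for fhn1, 0.426 for pop7 and 0.426 for dlc2.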

How the results depend on the processing

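The count of features that differed in hydroxyurea (3496) became 2274, with 1033 lower, when each probe was tested alone and both had to pass. The count past 2-fold (194) became 128 under quantile normalization. The 0 min count (2239) became 1224 with near-repeat arrays counted once and 1093 with each probe alone. The count of features whose change differed (59) was the least settled: 188 when the fit held only the groups compared, 109 under quantile normalization, 110 with the time course as a random block, 3 with near-repeats counted once and 7 with each probe alone. Leaving out 1 array at a time gave 3358 to 3501 features in hydroxyurea, 1780 to 1906 higher, 1561 to 1685 lower, 177 to 209 past 2-fold, 1555 to 1688 at 0 min and 7 to 121 for the change. For the change, the count was 7 and 12 without the first and second Cdelta53 array at 0 min, 13 and 18 without those of Cdelta94, 35 to 37 without any later Cdelta53 array, and 121 without the first Cdelta94 array at 120 min. The causes were not tested. The replicate numbers did not pair the arrays, and a fit with the replicate number as a block (replicate block) gave 3525, 2309 and 76 features for the 3 tests. One value per time course, an alternative chosen after seeing the data, gave 2826 in hydroxyurea, and the 10 and 60 min arrays alone gave 2962. Of 170 named genes, 35 missed the threshold in at least 1 setting and 8 changed sign in at least 1, all of them with differences under 0.5 in size. cdt1 became −0.0043 under median centring, −0.11 without 60 min and −0.016 without 120 min. mrc1 became −0.095 over 10 and 60 min and −0.0094 with each probe alone. pol1 became −0.026 and 0.12 without the first and second Cdelta94 array at 10 min, and −0.071 without 30 min. rad21 became 0.039 under quantile normalization and 0.040 and −0.15 without the first and second Cdelta94 array at 30 min. Quantile normalization also gave 0.098 for ctp1, 0.050 for obr1 and 0.024 for hem14, and the 10 and 60 min arrays alone gave 0.11 for tdh1 and 0.068 for hem14. Signal intensities were not used here, so values near background, such as those at the rep2 probes, could not be told from low expression.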
